A study of Mus musculus with 4 samples.

Results

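The cells described here were the resting C1q+ macrophages of B16-F10 melanomas, a population of tumor macrophages rich in the 3 chains of complement C1q that carried few transcripts of the cell cycle or of a set of hypoxia genes. They were selected on raw counts of unique molecular identifiers (UMIs, each standing for 1 captured transcript molecule). A cell had to have at least 10 UMIs of C1qa, C1qb and C1qc together, at least 5 of Lyz2, at most 1 of Cd3d, Cd3e and Cd3g together, 0 of Ncr1, fewer than 3 of Hilpda, Egln3, Vegfa, Nos2 and Inhba together, and fewer than 3 of Mki67 and Top2a together. Of 8822 cells sorted as CD45+ kept because they had 1000 to 5999 genes detected, with mitochondrial transcripts under 10% of UMIs, 1116 met these conditions, and 1113 of them came from the ZsG+ library. These 1113 cells were 27.0% of the 4123 cells kept in that library (95% interval 25.6 to 28.4) and 32.6% of its 3415 cells with at least 5 Lyz2 UMIs (31 to 34.2).

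ZsG is ZsGreen, a fluorescent protein that the tumor cells made when doxycycline was given in the drinking water, so that a ZsG+ leukocyte carried fluorescence that came from the tumor. The host mice were wild-type C57BL/6 animals of unstated age, and the tumor was a subcutaneous B16-F10 line grown from 1 brightly fluorescent clone with doxycycline-inducible ZsG, so that every library shared the same tumor clone and the same inducer. On day 8, CD45+ cells were sorted into ZsG- and ZsG+ fractions, and 1 droplet 3′ library was made of each, with no replicate library. The ZsG+ gate of this sort took bright cells. The paper states that most lymphocytes positive for ZsG therefore lay in its ZsG- gate. For this reason a second experiment sorted CD45+ TCRb+ cells of the same tumor model into ZsG- and ZsG+ fractions. Its libraries serve below only as values from cells that were not used to rank genes.

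The ZsG- library held 5437 barcodes and 47537541 UMIs, and the ZsG+ library held 5168 barcodes and 56510578 UMIs. The selected cells of the ZsG+ library summed to 14606609 UMIs, with a median of 11855 UMIs, 2985 genes and 3.11% mitochondrial UMIs per cell. They ranged from 1837 to 45150 UMIs. The CD45 libraries shared 6 barcodes, a number that includes chance repeats, and 2 selected cells had a barcode also seen in another library. With 1 library per fraction there was no test between conditions. Levels are given as counts per 1000000 summed UMIs (CPM), and all intervals, exact Poisson for levels, exact binomial (Clopper-Pearson) for shares and exact conditional for ratios, are 95% intervals that cover counting error only.

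C1q is the recognition unit of the classical complement pathway, assembled from A, B and C chains that macrophages make in the tissue. It binds immune complexes and dying cells, marks them for uptake, and is a standard marker of mature tissue and tumor macrophages as opposed to freshly recruited monocytes. In mouse tumors, C1q-rich macrophages are commonly described with genes for phagocytosis, lysosomal digestion, lipid handling and antigen presentation.

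The C1q genes lie side by side on chromosome 4 on the minus strand of GRCm38, C1qb at chr4:136880129-136886187, C1qc at chr4:136889804-136893065 and C1qa at chr4:136895917-136898803. Ccl8, a monocyte-attracting chemokine gene of the Ccl2 cluster, lies at chr11:82115185-82116799 on the plus strand. The promoters of a pair of genes are printed because one belongs to the gene that defines the cells with the highest C1q level and the other to the named gene with the largest difference from C1q-low cells. Each is the 250 bases before the RefSeq start site in GRCm38.p6, read 5′ to 3′ on the gene's strand. C1qb is at chr4:136886201-136886450 (minus strand) and Ccl8 at chr11:82114935-82115184 (plus strand). Capitals mark the letters GAGGAA, a core of sites bound by PU.1 and related ETS factors, and TGCTGA, part of sites bound by MAF factors, each on either strand.
C1qb: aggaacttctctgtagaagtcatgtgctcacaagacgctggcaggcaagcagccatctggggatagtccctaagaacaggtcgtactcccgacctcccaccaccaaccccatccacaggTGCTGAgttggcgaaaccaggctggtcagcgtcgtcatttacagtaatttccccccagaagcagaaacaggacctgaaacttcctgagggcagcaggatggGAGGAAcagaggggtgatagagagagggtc
Ccl8: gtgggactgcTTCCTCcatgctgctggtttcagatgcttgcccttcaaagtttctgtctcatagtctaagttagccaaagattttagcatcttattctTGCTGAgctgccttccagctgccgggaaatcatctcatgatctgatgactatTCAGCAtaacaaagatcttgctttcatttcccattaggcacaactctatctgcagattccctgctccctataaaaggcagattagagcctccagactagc
The C1qb window held GAGGAA 30 to 25 bases and TGCTGA 131 to 126 bases before the start. In the Ccl8 window GAGGAA lay on the minus strand 240 to 235 bases before the start, and TGCTGA lay 152 to 147 bases and, on the minus strand, 100 to 95 bases before it. The letters are common, since 23.3% of 32851 RefSeq promoters of this length held GAGGAA and 16.1% held TGCTGA. Neither window held TTGCNNAA, a C/EBP-type pattern found in 9.56% of promoters, or the core of an interferon-stimulated response element, found in 2.98%. These matches describe the letters and say nothing of binding.

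The genes used for selection are given as a description. In the 1113 cells the C1q genes summed to 10 to 535 UMIs per cell with a median of 94, and Lyz2, the lysozyme gene of myeloid cells, to 5 to 612 with a median of 98. C1qa stood at 3096 CPM (3068 to 3125), C1qb at 3797 and C1qc at 1904. The 5 hypoxia genes were at 0 UMIs in 676 cells (60.7%), Mki67 and Top2a were both at 0 in 922 (82.8%), and the CD3 genes were at 0 in 1045 (93.9%). Across the C1q threshold, the 62 cells with 10 to 14 C1q UMIs had Ms4a7 at 111 CPM and Ccl8 at 161, beside 74.6 and 267 in the 88 cells with 5 to 9. Lpl was at 1210 CPM on both sides and Chil3 at 350 and 378. Cells just inside the limit thus had levels nearer to the cells just outside it than to the selected cells as a whole. Across the hypoxia limit, Mmp12 was at 8.02 CPM in 137 cells with 2 UMIs and 17.0 in 91 cells with 3. Across the cycle limit, the replication gene Pclaf was at 41.3 CPM in 51 cells with 2 UMIs and 151 in 24 cells with 3.

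The marker genes Lpl, Ccl8, Ms4a7 and Folr2 were not in the selection, and their levels varied. Lpl, lipoprotein lipase, was at 1471 CPM (1451 to 1491) with a UMI in 93.1% of cells. Ccl8 was at 1125 CPM (1108 to 1142) in 50.9%, Ms4a7, a membrane protein gene of tissue macrophages, at 374 (364 to 384) in 56.2%, and Folr2, folate receptor beta, at 47.1 (43.6 to 50.8) in 22.7%. Among general macrophage genes, Cd68 had a UMI in 98.8% of cells, the Fc receptor gene Fcgr1 in 98.7% and the growth factor receptor gene Csf1r in 91.0%, beside 17.9%, 13.6% and 6.23% of the T and NK cells of the same library, whose median depth was 5018 UMIs. GEO's labels call the sorted cells tumor-infiltrating lymphocytes, whereas 3415 of the 4123 kept ZsG+ cells had at least 5 UMIs of Lyz2. Several genes often used for long-lived resident macrophages were nearly undetected. Over all 14606609 UMIs there were 7 of Lyve1, 5 of Cd163, 8 of Timd4 and 0 of Vsig4, a count that allows up to 0.253 CPM. Genes of recruited monocytes were abundant in the same cells, with Ly6c2 at 1011 CPM, the chemokine receptor gene Ccr2 at 594, Plac8 at 1311 and Ms4a6c at 1211. The name resting covers the cycle and hypoxia genes only, because the immediate early gene Fos stood at 2438 CPM and the inflammatory cytokine gene Il1b at 2265.

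The 10 highest levels per UMI were ranked without the genes of the selection and without mitochondrial and ribosomal protein genes. Most of them belonged to genes of the cytoskeleton, iron storage and antigen presentation. Tmsb4x was at 17590 CPM and Actb at 12820. The invariant chain Cd74 was at 9861 CPM, the class II genes H2-Ab1 and H2-Aa at 4730 and 4523, and the ferritin genes Fth1 and Ftl1 at 8179 and 7655. Gm42418, a locus that overlaps ribosomal RNA, Malat1 and Tpt1 completed the 10 highest at 10970, 10180 and 5050 CPM. A 3′ library yields 1 tag per molecule, so these levels were not divided by gene length.

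In the CD45+ sort, the ZsG- fraction held almost none of these cells. Only 3 of its 4699 kept cells met the selection (0.0638%, 0.0132 to 0.187), although 270 C1q-low, Lyz2-expressing cells were found there. Those 3 cells had 7909, 8795 and 10031 UMIs, and 19, 11 and 19 C1q UMIs. Ms4a7, Ccl8 and Folr2 were at 0 in all 3, and Lpl had 0, 0 and 8 UMIs. Ly6c2 had 25, 13 and 21 UMIs in them and Apoe 24, 19 and 29. Hence 99.7% of all selected CD45+ cells (99.2 to 99.9) lay in the ZsG+ library. Fraction and library were the same thing in this design, and they cannot be told apart.

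**Figure D1:**
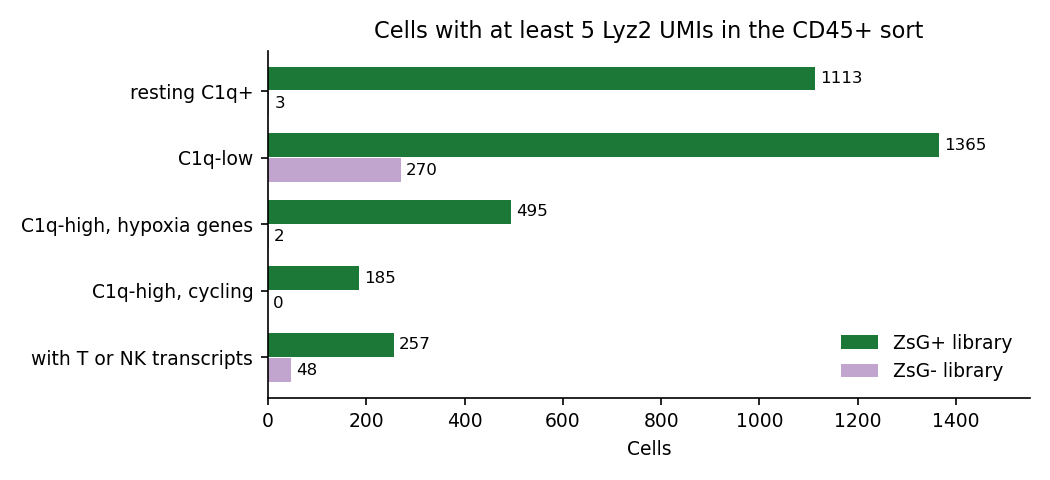
Number of kept cells (x axis) in each range of Lyz2-expressing cells (y axis) in the ZsG- and ZsG+ libraries of the CD45+ sort, 1 library each and no error bars. The ZsG+ library held 1113 resting C1q+ macrophages and the ZsG- library 3, whereas C1q-low cells numbered 1365 and 270.

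The other Lyz2-expressing cells of the ZsG+ library were split into 4 ranges. C1q-low cells had fewer than 10 C1q UMIs (1365 cells, median 7676 UMIs). C1q-high hypoxia-gene cells had at least 3 UMIs of the 5 hypoxia genes (495 cells, 12984), and C1q-high cycling cells at least 3 of Mki67 and Top2a (185 cells, 24206). Cells with T or NK transcripts had more than 1 CD3 UMI or any Ncr1 (257 cells, 18042). Medians of UMIs per cell thus differed over the ranges, and the part this played in the levels was not tested except by thinning. Every comparison below uses the same 1113 cells, so the comparisons share one side.

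Against all 2302 other Lyz2-expressing cells together, more genes were lower than higher in the resting C1q+ macrophages. The selection itself had put cycling cells, hypoxia-gene cells and cells with T or NK transcripts on the other side. This imbalance is therefore given as a description. Among 11938 genes with at least 20 UMIs, 849 (7.11%) were at least 2-fold lower and 61 (0.511%) at least 2-fold higher. Here and below, genes named for their rank in a comparison were detected in 10% or more of cells on either side, and rarer genes could have larger ratios. The 15 highest named genes included Abcc3, a drug and bile acid transporter gene, at 12.1 against 5.43 CPM (log2 ratio 1.15, 0.83 to 1.47), the carbonyl reductase gene Cbr2 at 1.12, Ccl8 at 1125 against 528 CPM (1.09), the p53 target Phlda3 at 1.05 and Ms4a7 at 374 against 186 CPM (1.01). Zmat3, another p53 target, followed at 1.00, then Chst14 at 0.96, Folr2 at 0.89, Tmem86a at 0.88, Ch25h, the cholesterol 25-hydroxylase gene, at 0.87 and Apoe at 0.83. The 15 lowest were histone, cell cycle and lymphocyte genes, and Pglyrp1, a gene of the non-classical monocyte list, at -2.80. Pglyrp1 stayed below 0 in all 21 alternatives, from -6.02 to -1.43. Hist1h1b was at 6.64 against 135 CPM (-4.34), the cytotoxic granule gene Nkg7 at 4.72 against 81.8 (-4.10), and the T cell receptor gene Trbc2 at 4.93 against 79.9 (-4.01). The differences of the histone, cell cycle and lymphocyte genes followed the selection, which removed cells with CD3 or cycle transcripts. They are given as a description. Without the cells with T or NK transcripts on the other side, Nkg7 stood at 0.16 and Trbc2 at 0.61, and the genes at least 2-fold lower numbered 487.

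The next contrast was with the C1q-low cells alone, which lay in the same library and the same gate. The hypoxia and cycle genes of the selection were capped in the resting C1q+ macrophages but not in the C1q-low cells. Genes that go with these could be lower through the selection, and their part in the counts below was not tested. The same holds for this contrast in the T cell sort. Here 308 of 11081 genes (2.78%) were at least 2-fold higher in the resting C1q+ macrophages and 420 (3.79%) at least 2-fold lower, with a median log2 ratio over all genes of 0.04. Ccl8 stood at 1125 CPM against 124 (118 to 131), a log2 ratio of 3.18 (3.10 to 3.25). Hpgds, the prostaglandin D2 synthase gene, followed at 26.8 against 4.52 CPM (2.56), and Ms4a7 at 374 against 78.2 (2.26, 2.16 to 2.36). Cbr2 had a log2 ratio of 2.21, Folr2 of 2.14 (47.1 against 10.7 CPM), Abcc3 of 2.12, the adhesion gene Cadm1 of 2.07 and the paraoxonase gene Pon3 of 1.98. These were all of low level apart from Ccl8 and Ms4a7. Lpl, the remaining marker, was higher by less, at 1471 against 935 CPM (0.65, 0.62 to 0.69).

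The 8 lowest genes were named in the same way. Haptoglobin, Hp, was at 13.8 CPM in the resting C1q+ macrophages against 82.6 (-2.58, -2.80 to -2.36), and the leukocyte protease inhibitor gene Slpi at 12.5 against 71.2 (-2.50). Dmkn had a log2 ratio of -2.44, the interferon-induced membrane protein gene Ifitm6 of -2.38, the glutathione reductase gene Gsr of -2.30 and Plcb1 of -2.25. Chil3, a chitinase-like gene of Ly6C-high monocytes, was the most abundant of the 8 lowest, at 158 against 651 CPM (-2.04, -2.11 to -1.97). The stress chaperone gene Hspa1b completed them at 43.2 against 169 CPM (-1.97).

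Droplet libraries also hold transcripts caught outside their cell of origin, which give every cell a background. In 257 T and NK cells of the same library with fewer than 5 Lyz2 and fewer than 10 C1q UMIs, C1qa was at 50.2 CPM with a UMI in 36.6% of cells, beside 52.0 CPM and 34.7% in the C1q-low cells. In the 3493 such lymphoid cells of the ZsG- library C1qa was at 1.35 CPM and in 0.973%. Both groups were capped at fewer than 10 C1q UMIs, so these C1qa values are a description only. For Ccl8 the unthinned share of cells with a UMI was 50.9% in the resting C1q+ macrophages, 28.9% in C1q-low cells and 30.0% in the background cells, whose median depth was 5018 UMIs. With each cell thinned to 3000 UMIs, which left out 6, 18 and 33 cells, the shares were 32.5%, 14% and 14.7%. The Ccl8 share of C1q-low cells was thus no more than that of lymphoid cells, although their level, 124 CPM, exceeded the 43.4 CPM of the background. Ms4a7 had thinned shares of 38.7%, 11.4% and 2.23%, Lpl of 81.7%, 56.6% and 10.3%, Folr2 of 9.76%, 2.75% and 0%, and Trem2 of 34.4%, 14.6% and 1.79%. For these 4 genes the resting C1q+ macrophages had the highest share of the 3 and the background cells the lowest.

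**Figure D2:**
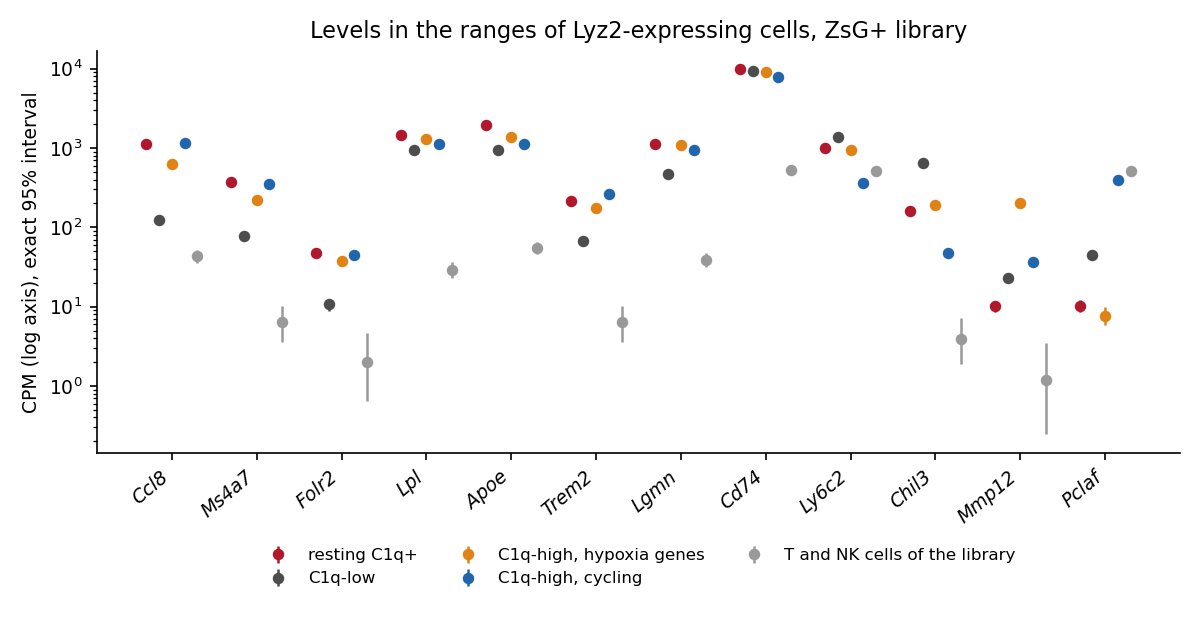
Level of 12 genes in CPM (log axis) in resting C1q+ macrophages, the C1q-low, hypoxia-gene and cycling ranges and the T and NK cells of the ZsG+ library, each point a sum over cells of 1 library with its exact 95% counting interval. Ccl8 stood at 1125, 124, 634, 1152 and 43.4 in these groups, and Chil3 was highest in C1q-low cells at 651.

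The gene lists are described by counts and medians, with the median over all genes of 0.04 beside them. Genes of resident-type macrophages had the highest median of the lists with more than 5 measured genes. Of 17 measured, 10 were at least 2-fold higher and none lower, with a median log2 ratio of 1.29. Besides Ccl8, Ms4a7 and Folr2 they included Gas6, which bridges dying cells to phagocyte receptors, at 5.82 against 0.646 CPM (3.09), Igf1 at 1.85, the scavenger receptor gene Stab1 at 56.5 against 18.5 CPM (1.61), the chemokine gene Pf4 at 282 against 104 (1.44), the mannose receptor gene Mrc1 at 192 against 78.2 (1.29) and the selenium carrier Selenop at 248 against 111 (1.16). F13a1 lay on the other side at 99.1 against 141 CPM (-0.51). Ccl8, Ms4a7 and Folr2 in this list were also the chosen markers.

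Among scavenger and efferocytosis genes, 5 of 17 were at least 2-fold higher and none lower, with a median of 0.44. These were Gas6, Stab1, Mrc1, Mertk, which is the receptor kinase for Gas6, at 19.4 against 8.08 CPM (1.26), and the integrin gene Itgb5 (1.11). The most abundant member, the class A scavenger receptor gene Msr1, was at 319 against 280 CPM (0.19). Lipid-associated macrophage genes had 5 higher and 2 lower of 22, with a median of 0.38. Trem2, a lipid-sensing receptor, was at 215 against 67.6 CPM (1.67, 1.56 to 1.78), the oxysterol receptor gene Nr1h3 at 1.36, Cd63 at 1.28, the cholesterol exporter gene Abca1 at 1.21, and Apoe, which accepts that cholesterol, at 1963 against 940 CPM (1.06). The fatty acid binding protein gene Fabp4 was on the other side at 5.20 against 12.7 CPM (-1.28), as was Apoc1 (-1.35), and Gpnmb was at 16.5 against 17.8 CPM.

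Most lysosomal genes had small ratios above 0, beside a median over all genes of 0.04, and the list was not tested as a group. Of 38, 34 had a log2 ratio above 0, 4 were at least 2-fold higher and none lower, with a median of 0.44. The 4 were Cd63, the asparagine endopeptidase gene Lgmn at 1111 against 473 CPM (1.23, 1.19 to 1.27), progranulin, Grn, at 903 against 447 (1.02), and the protease gene Ctsd at 821 against 406 (1.01). Cathepsin B, Ctsb, was just short of that at 2302 against 1175 CPM (0.97), and Psap, the most abundant, was at 2961 against 2473 (0.26). Complement genes other than C1q had 1 of 14 at least 2-fold higher, C4b at 13.1 against 6.06 CPM (1.11), and a median of 0.35. The receptors for the complement fragments C3a and C5a, C3ar1 and C5ar1, were at 0.88 and 0.62, and C3 itself was lower, at 99.8 against 142 CPM (-0.51). Of 14 general macrophage genes 2 were at least 2-fold higher, Adgre1, the gene of F4/80, at 218 against 103 CPM (1.08) and Mertk, with a median of 0.26. All 8 Fc receptor genes had ratios above 0, none 2-fold, with Fcgr4 at 500.0 against 298 CPM (0.74) and a median of 0.30. Of 15 iron and heme genes 1, the ceruloplasmin gene Cp with 21 UMIs against 2 (2.87, 1.12 to 6.29), was 2-fold higher and none lower (median 0.43), with Ftl1 at 0.43 and Fth1 at 0.10, and the iron exporter gene Slc40a1 had 2 UMIs.

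Few antigen presentation genes passed 2-fold in the CD45 sort, as was so of all genes, of which 2.78% were higher and 3.79% lower. None of 10 class II genes was 2-fold higher and 1 was 2-fold lower, the peptide-loading modulator H2-Ob at 6.37 against 13.6 CPM (-1.09), with a median of -0.05. Cd74 was at 9861 against 9279 CPM (0.09) and H2-Ab1 at 4730 against 4492 (0.07). The class II master regulator Ciita was at 118 against 143 CPM (-0.28). Among 18 class I genes none passed 2-fold either way (median 0.07), with B2m at 3264 against 2930 CPM (0.16). Checkpoint and co-stimulation genes had 1 higher and 2 lower of 22 (median -0.09). The sialic acid receptor gene Siglec1 was the higher one at 28.2 against 13 CPM (1.11), and Cd274, the gene of PD-L1, stood at 138 against 167 (-0.28). The lower ones were Btla (-2.13) and the co-stimulatory ligand gene Cd80 (-1.01). Of 16 Toll-like receptor pathway genes none passed 2-fold (median 0.17), with Unc93b1 at 343 against 276 CPM (0.31).

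Chemokine genes differed to unequal degrees and in both directions. Ccl8 was at 3.18, Ccl12 was at 1319 against 559 CPM (1.24, 1.2 to 1.28), Ccl7 at 2647 against 1354 (0.97) and Ccl2 at 3183 against 2420 (0.40), while Ccl3, Ccl4 and Ccl5 were at -0.10, -0.03 and 0.13. Over 19 chemokine genes 3 were at least 2-fold higher, Ccl8, Ccl12 and Pf4, and 2 lower, with a median of 0.06. The 2 lower were Cxcl3 at 2.05 against 7.76 CPM (-1.90) and Ccl22 at 7.60 against 17.9 (-1.23). The interferon-induced chemokine gene Cxcl10 was at 1875 against 2785 CPM (-0.57) and Cxcl9 at 2226 against 1953 (0.19). Chemokine receptor genes had 2 of 8 lower and none higher (median -0.42), with Ccr2 at 594 against 758 CPM (-0.35) and Cxcr4 at 20.9 against 44.6 (-1.09).

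In the CD45 sort, interferon-induced genes passed 2-fold in a share near that of all genes, 2.78% higher and 3.79% lower, or not at all, and cytokine genes passed it in both directions. Among 36 cytokine and cytokine receptor genes 3 were at least 2-fold higher and 4 lower, with a median of -0.31. Il1b was at 2265 against 4480 CPM (-0.98, -1.0 to -0.96) and Il6 at 14.4 against 40.1 (-1.47). Hbegf, the decoy receptor gene Il1r2 and oncostatin M, Osm, were the other 2-fold lower ones at -1.17, -1.07 and -1.07. The growth factor genes Pdgfc, Igf1 and Pdgfb stood on the higher side at 2.11, 1.85 and 1.00, and Il10 was at 17.1 against 8.81 CPM (0.96). Of 26 genes induced by interferon alpha or beta, 24 had ratios at or below 0 and 1, the exonuclease gene Isg20 (-1.16), was 2-fold lower (median -0.41). Isg15 was at 1276 against 1695 CPM (-0.41) and Rsad2 at 256 against 419 (-0.71). Genes induced by interferon gamma had a median of -0.09 with none of 18 past 2-fold. Immediate early genes had a median of -0.34 with none of 23 past 2-fold, and heat shock genes had 2 of 14 lower, Hspa1b and Hspa1a (119 against 273 CPM, -1.2).

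Monocyte genes lay on the C1q-low side, with the lowest median of the lists after that of dendritic cell genes. Of 25, 10 were at least 2-fold lower in the resting C1q+ macrophages and none higher, with a median of -0.83. After Hp, Ifitm6 and Chil3 came Thbs1 at 59.0 against 211 CPM (-1.84), Vcan at 62.8 against 203 (-1.69) and Plac8 at 1311 against 2724 (-1.06). Ly6c2 differed less, at 1011 against 1395 CPM (-0.46), and Ms4a6c at 1211 against 1262 (-0.06). Non-classical monocyte genes had 6 of 16 lower and 1 higher (median -0.53), with Ace at 0.959 against 8.08 CPM (-3.03) and Treml4 at 1.44 against 6.95 (-2.25), and with Cd300e the higher one (1.29). Among 38 transcription factor genes 2 were 2-fold higher and 3 lower (median -0.19). The higher ones were the lipid-responsive receptors Pparg at 28.3 against 10.6 CPM (1.41) and Nr1h3, while Maf was at 0.32 and the inflammatory regulator Cebpb at 685 against 1214 CPM (-0.83). The lower ones were Spic (-1.58), the aryl hydrocarbon receptor gene Ahr (-1.2) and Bhlhe40 (-1.02), which was also in the list of hypoxia genes. Matrix genes had 3 of 24 higher and 4 lower (median -0.30), with the metalloprotease inhibitor gene Timp2 at 114 against 32.8 CPM (1.8) and fibronectin, Fn1, at 157 against 299 (-0.93). Serpinb6a and Mmp13 were the other higher ones at 2.00 and 1.19, and Mmp8 and Mmp12 joined Thbs1 and Vcan on the lower side at -2.11 and -1.19. Mmp12 was also the gene with the lowest ratio named against the hypoxia-gene range, described below.

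**Figure D3:**
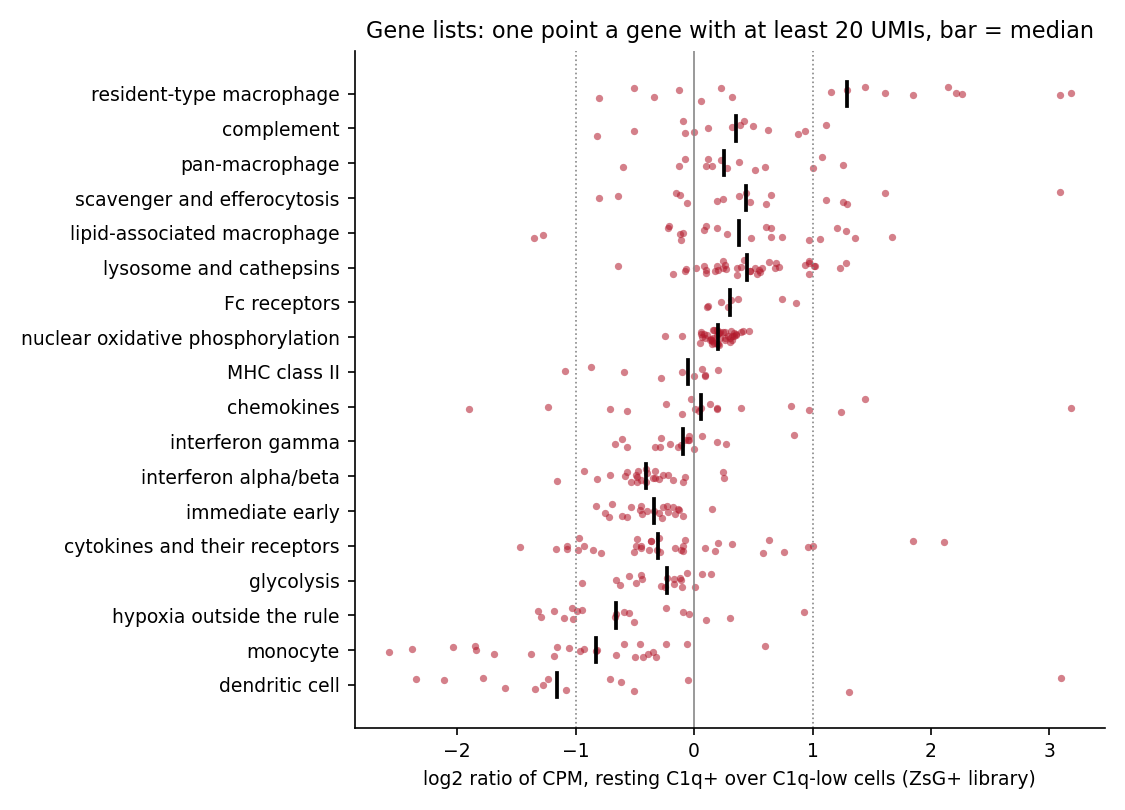
Log2 ratio of resting C1q+ macrophages over C1q-low cells (x axis) for the genes with at least 20 UMIs in 18 lists, 1 point per gene with a bar at the list's median and dotted lines at 2-fold. Resident-type genes had a median of 1.29 and monocyte genes of -0.83, and most other lists centered between -0.5 and 0.5.

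Metabolic genes differed little in size. Of 44 nuclear genes of oxidative phosphorylation 42 had ratios above 0, none 2-fold, with a median of 0.20. None of 19 glycolysis genes passed 2-fold (median -0.23), with Gapdh at 2578 against 2452 CPM (0.07). Hypoxia genes that the selection did not use had 6 of 19 at least 2-fold lower and none higher (median -0.66), among them Ndrg1 at 34.4 against 84.1 CPM (-1.29) and Ddit4 at 3.90 against 9.78 (-1.32). Cycle genes outside the selection had 14 of 38 lower and none higher (median -0.81). Both lists are close to genes that the selection capped in one group and not in the other.

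The hypoxia-gene range differed from the resting C1q+ macrophages chiefly in genes that were higher in the hypoxia-gene cells. Of 10820 genes 262 (2.42%) were at least 2-fold lower in the resting cells and 109 (1.01%) higher. Mmp12, macrophage elastase, was at 10.1 against 202 CPM (-4.32, -4.58 to -4.08). Rhov followed at -2.95, the arginine transporter gene Slc7a2 at -2.52, Ddit4, Pmp22, Il7r and Ndrg1 between -2.29 and -2.25, and Fabp4 at -2.19. Of 20 hypoxia genes outside the selection, 13 were at least 2-fold lower (median -1.47), a list close to the 5 genes that split these groups. Glycolysis genes had 2 of 19 lower (median -0.60), the glucose transporter gene Slc2a1 (-1.54) and the regulatory enzyme gene Pfkfb3 (-1.08). The heme oxygenase gene Hmox1 was at 158 against 396 CPM (-1.32), Fth1 at -0.71, Fabp5 at -1.01 and the secreted phosphoprotein gene Spp1 at 391 against 735 (-0.91). In contrast, Apoe was at 0.53, Ms4a7 at 0.75, Ccl8 at 0.83 and Zmat3, the highest among genes with a UMI in 10% of the cells of either side, at 1.05 (0.56 to 1.60). The resident-type and monocyte lists had medians of 0.15 and -0.08 here, against 1.29 and -0.83 in the comparison with C1q-low cells.

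Against the cycling range, 3 of the 4 markers outside the selection were at nearly the same level, and Lpl was higher, at 1471 against 1113 CPM (0.40, 0.36 to 0.45). Ccl8 was at 1125 against 1152 CPM (-0.03, -0.08 to 0.01), Ms4a7 at 374 against 356 (0.07, -0.01 to 0.16) and Folr2 at 47.1 against 45.4 (0.05). Of 10741 genes 790 (7.35%) were at least 2-fold lower in the resting cells and 150 (1.4%) higher. The lowest were mitotic genes, Kif14, with 2 UMIs in the resting cells, at -6.24 (-9.63 to -4.63), Esco2 at -6.17, Prc1 at 1.58 against 105 CPM (-6.02) and Aspm at -6.0, and 37 of 38 cycle genes outside the selection were at least 2-fold lower, a list close to the capped genes Mki67 and Top2a. Among genes with a UMI in 10% of the cells of either side, the highest included Chil3 at 158 against 47.9 CPM (1.72, 1.53 to 1.94) and Ly6c2 at 1011 against 366 (1.46, 1.39 to 1.54). Phlda3 stood at 1.59, Gm9733 at 1.45, Slfn4 at 1.38 and Rhou at 1.33. Chil3 and Ly6c2 thus ordered the 3 groups from C1q-low cells, the highest, through the resting C1q+ macrophages to the cycling cells. Monocyte genes had 3 of 25 at least 2-fold higher and none lower than in the cycling range (median 0.54).

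Levels within the 1113 cells were far from even. At 5000 UMIs per cell, which 1076 cells reached, the variance of Ccl8 was 46.7 times its mean. Ccl8 was at 0 UMIs in the median cell, at 14 in the cell at the 90th percentile and at 161 in the highest, with a UMI in 38.8%. Among the 15 most uneven genes outside the selection only Gm42418, at 73.9, exceeded it. Apoe had a ratio of 34.1, Spp1 of 28.8, Cxcl10 of 23.2, Cxcl9 of 19.7, Ccl7 of 17.1, Fabp5 of 16.1, Cxcl2 of 15.2, Pf4 of 14.2 and Il1b of 14. By comparison Ccl2 had 13.9, Lpl 6.33 and Trem2 2.54, and of the selection genes Lyz2 had 22.5, C1qa 9.7 and C1qb 6.43. Apart from Gm42418, Malat1, Fth1 and Fabp5, the 15 were genes of secreted proteins. Over the 105 pairs of the 15 genes, all correlations came from cells of 1 library and are a description. The highest Pearson's r was 0.392 between Ccl8 and Pf4 (0.348 in 75 cells of the T cell sort), followed by 0.372 between Apoe and Pf4 (0.265) and 0.336 between Fabp5 and Pf4 (0.419). Cxcl2 and Il1b had 0.298 (0.375). The lowest were -0.275 between Pf4 and Il1b (-0.336) and -0.273 between Ccl8 and Il1b (-0.268). Each of these 6 pairs had the same sign in both experiments, and all were weak to moderate.

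**Figure D4:**
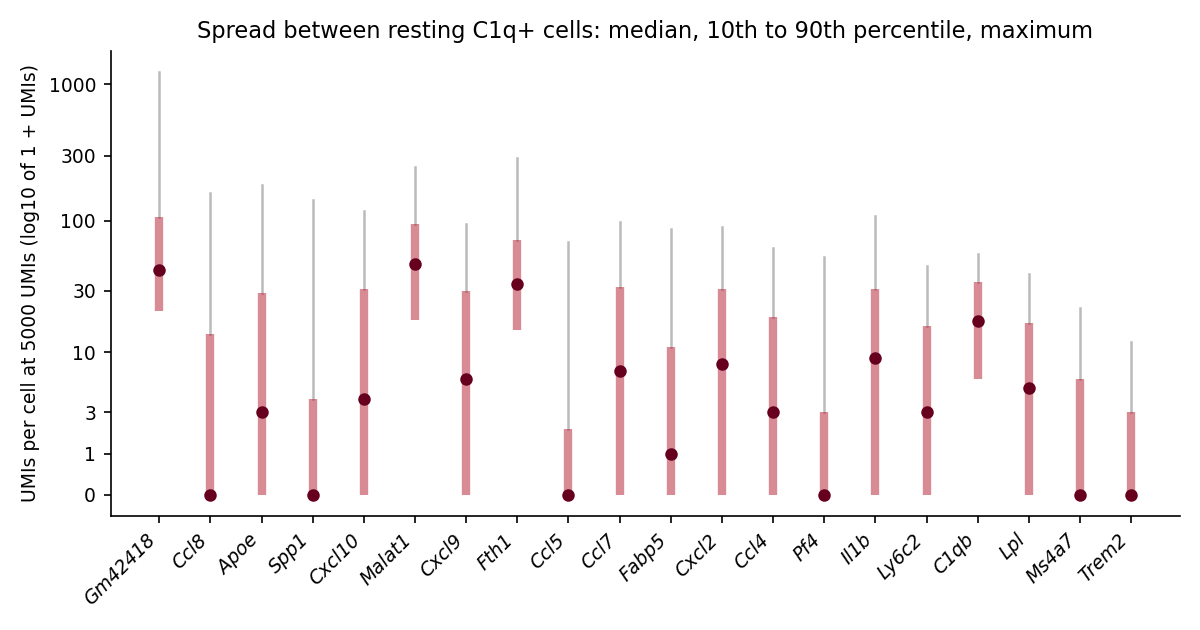
UMIs per cell at 5000 UMIs (y axis, log10 of 1 + UMIs) of the 15 most uneven genes outside the selection and 5 others over 1076 resting C1q+ macrophages, with a point at the median, a thick bar from the 10th to the 90th percentile and a thin line up to the highest cell. Ccl8 had a median of 0, a 90th percentile of 14 and a highest cell of 161.

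The T cell sort gave cells that were not used to rank the genes. Although this sort was gated on TCRb, 379 of its 2694 kept cells had at least 5 Lyz2 UMIs, and 78 of these (20.6%, 16.6 to 25.0) met the whole selection. They had a median of 14414.5 UMIs. The fractions of this sort were pooled, because its labels give 2 different orders for them. Of the 78 cells, 63 had barcode suffix 1 and 15 had suffix 2. Under either order the ZsG- fraction of this sort held at least 15 of them, beside 3 in the CD45+ sort. The CD45+ sort had its gate on bright ZsG+ cells, so the ZsG- fractions of the sorts may not be alike. Against 177 C1q-low cells of the same sort, Ccl8 stood at 2768 against 142 CPM (4.28, 4.11 to 4.46), Ms4a7 at 551 against 112 (2.30, 2.08 to 2.52), Folr2 at 51.7 against 7.25 (2.80) and Lpl at 1292 against 731 (0.82). Of the 8 highest genes in the CD45 comparison, 7 had 20 UMIs here, all 7 were higher again and 6 of them 2-fold, where 4.48% of 7951 genes were 2-fold higher. Abcc3, with 8 and 6 UMIs, was too sparse at 1.02 (-0.67 to 2.86). All 8 lowest genes were again 2-fold lower, where 5.91% of genes were, with Hp at 35.2 against 174 CPM (-2.29) and Chil3 at 279 against 856 (-1.62). Gas6 was at 56.2 CPM here against 2 UMIs in the C1q-low cells (5.55, 3.96 to 8.93), beside 5.82 CPM in the CD45 sort. Resident-type genes had 10 of 16 higher and 2 lower (median 1.95), and monocyte genes 10 of 24 lower and none higher (median -0.84). Of the 24 monocyte genes 2 had ratios above 0 here, Ly6c2 at 1664 against 1439 CPM (0.21, 0.13 to 0.29) and Ms4a6c at 0.06 (-0.03 to 0.14), and both were below 0 in the CD45 sort. Some other lists moved less here than in the CD45 sort. Lipid-associated macrophage genes had a median of 0.32 here against 0.38, and cycle genes outside the selection of -0.47 against -0.81. Interferon alpha/beta, class II and cytokine genes passed 2-fold more often here, as did all genes. Of 27 interferon alpha/beta genes 6 were at least 2-fold lower and none higher (median -0.62), among them Rsad2 at 229 against 624 CPM (-1.44). Of 10 class II genes 3 were lower, H2-DMb2, H2-Oa and H2-Ob with 2, 3 and 0 UMIs in the resting cells, and of 35 cytokine and receptor genes 8 were lower and 4 higher. Markers of other cell types moved with this contrast as well. All 7 neutrophil genes with 20 UMIs were at least 2-fold lower, and the list summed to 37.5 CPM in the resting cells, led by Csf3r at 25.5, against 374 in the C1q-low cells, and of those 7 genes S100a9, Retnlg and G0s2 were at 0 in the resting cells. Of 11 dendritic cell genes 10 were lower, the list summed to 90.7 against 692 CPM, led by Batf3 at 66.0 in the resting cells, and of the 11 Flt3 and Xcr1 were at 0 there. Siglech and Ccr9, the higher ones of that list in the CD45 sort, were lower here. The class II, neutrophil and dendritic cell genes at 0 in the resting cells reached 20 UMIs only through the C1q-low cells. Their place among the lower genes was thus fixed by the minimum of UMIs, and these counts are a description. The part that neutrophil-type and dendritic-type cells among the C1q-low cells had in this contrast was not tested. Against all 301 other Lyz2-expressing cells of this sort (1.75% of 9350 genes 2-fold higher, 8.44% lower), 13 of the 15 highest named genes kept their sign and 7 were 2-fold. The other 2 were Abcc3, first in the CD45 sort, at -0.31 (-1.69 to 0.75), and Mgmt, a DNA repair gene at 0.86 in the CD45 sort, at -1.43 (-3.98 to 0.04) on 3 UMIs in the resting cells. All 15 lowest, which were histone, cell cycle and lymphocyte genes and Pglyrp1, were again 2-fold lower. The same selection removed cells with CD3, Ncr1 or cycle transcripts here too, so this last count is a description and no independent check.

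**Figure D5:**
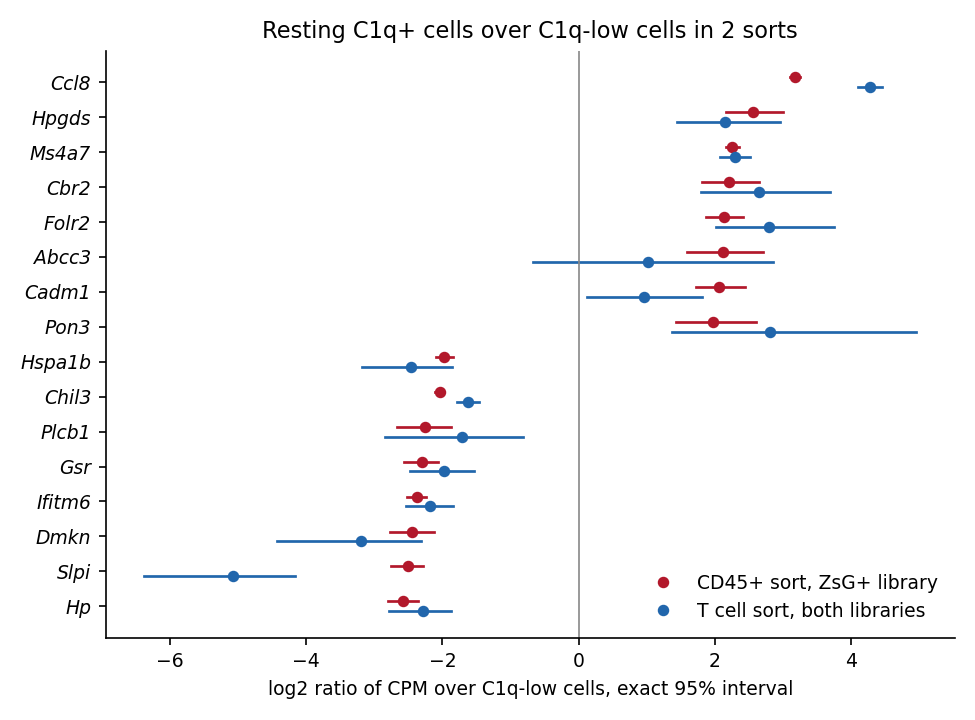
Log2 ratio of resting C1q+ macrophages over C1q-low cells in the CD45 sort and in the T cell sort for the 8 highest and 8 lowest named genes, with lines for 95% counting intervals. Ccl8 stood at 3.18 and 4.28 and Hp at -2.58 and -2.29, and the interval of Abcc3 in the T cell sort reached below 0.

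Transcripts of pigment cells were found in the resting C1q+ macrophages at a low level. Pmel, Mlana, Dct, Tyrp1 and Tyr, genes of melanosomes and melanin synthesis that B16 tumor cells express, summed to 24.6 CPM (22.2 to 27.3), with a UMI in 22.5% of cells. C1q-low cells of the same library had 11.1 CPM (9.37 to 13.2) and 7.40%, hypoxia-gene cells 34.9 CPM and 24.4%, and cycling cells 26.1 CPM and 38.9%. The T and NK background cells had 3.16 CPM (1.36 to 6.23) and 3.11%. The level in the resting cells was thus above that of the background by more than counting error. In the ZsG- library, C1q-low cells had 0.836 CPM (0.101 to 3.02) and lymphoid cells 0.361. How these transcripts came to be counted in the cells was not tested.

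Genes of other lineages were given beside these results. The 14 T cell genes outside the selection summed to 38.9 CPM in the resting C1q+ macrophages, 56.6 in C1q-low cells and 3628 in the background cells, with Il7r the most abundant at 20.9 and none at 0. The 14 NK cell genes summed to 353, 374 and 7775 CPM, with Ccl5, which macrophages also make, the most abundant at 196. The 10 B cell genes summed to 77.3 and 84.6 CPM, mostly Ighm at 68.5, with 2 at 0, and 2 of 3 measured were at least 2-fold higher in the resting cells. The 12 neutrophil genes summed to 42.8 and 65.6 CPM, led by Csf3r at 27.4, with 4 at 0. Of 4 neutrophil genes measured, 2 were at least 2-fold lower in the resting cells (median -0.63). The 15 dendritic cell genes summed to 204 and 358 CPM, led by Batf3 at 89.6 against 92.8, and 8 of 14 were at least 2-fold lower in the resting cells, among them Cd209a at 10.9 against 55.8 CPM (-2.35) and Flt3 at 2.60 against 6.38 (-1.28). The 2 higher ones were genes of plasmacytoid cells, Siglech with 35 UMIs at 2.40 CPM against 3 UMIs (3.10, 1.64 to 5.65), and Ccr9 at 2.67 against 1.05 CPM. The 16 non-immune genes summed to 11.6 and 14.1 CPM with 9 at 0. The 14 melanocyte genes summed to 30.4 and 15.4 CPM, led by Dct at 9.38. The part that dendritic-type and neutrophil-type cells among the C1q-low cells had in the contrast was not tested.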

How the data were processed

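The deposited matrices held UMI counts per gene and cell barcode, which the authors made with Cell Ranger on mm10 (version 6.1.2 in the submitters' processing notes and in the header of the T cell sort, 7.0.0 in the header of the CD45+ sort), with no normalization. The matrices listed 32285 genes (CD45+ sort) and 31053 (T cell sort). Counts were summed over the cells of each range with scipy 1.17.1 and pandas 2.3.3 on numpy 2.4.6 under Python 3.11.15, scaled to CPM over all UMIs of those cells, and compared as log2 ratios with 0.5 added to each sum. Genes needed 20 UMIs over both sides, and a gene was counted as changed past 2-fold, with no p-value because each gate was 1 library. Total UMIs per range set the precision. Doublets were kept, and leaving out the top 5% of Scrublet scores (scanpy 1.11.5) was an alternative, as were edgeR 4.0.16 TMM scaling in R 4.3.3, thinning to 3000 UMIs, other thresholds of the selection and other weights of cells. Named genes, leaving out mitochondrial and ribosomal protein genes and the 15 genes of the selection, were the 15 highest and 15 lowest against all other Lyz2-expressing cells, the 8 highest and 8 lowest against each range (with a UMI in 10% of the cells of either side), the 15 most uneven with a mean of at least 0.2 UMIs at 5000 UMIs, the 10 of highest CPM, and 2 to 4 examples from the lists. The selection of cells, the lists and the comparisons were chosen with earlier results of these data known. On simulated sums with 4-fold changes, against C1q-low cells, 99.5% of 193 changed genes were recovered, 0.604% of unchanged genes passed 2-fold, and 95.9% of intervals held the true ratio. Gene positions are of GENCODE on GRCm38, and promoters are of RefSeq on GRCm38.p6. C1qa and Lpl promoters were not used here. Figures were drawn with matplotlib 3.10.9. Values of a few single genes of the lists are not reported here.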

Additional observations from a re-analysis of the deposited data

How the results depend on the processing

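The share of kept ZsG+ cells that were selected, 27.0%, moved with several limits of the selection and with the limits on kept cells. It was 29.1% with at least 5 C1q UMIs and 24.5% with at least 20, 23.7% with fewer than 2 hypoxia UMIs and 31.5% with fewer than 6, 25.4% with no CD3 UMI, 23% with no limits on genes or mitochondrial UMIs, and 31% with limits per 10000 UMIs. Leaving out the 5% of selected cells with the most UMIs gave 25.6%. That value was fixed by construction, because the kept cells were all still counted. The number of selected cells ranged from 979 to 1302.

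Counts of genes depended on the minimum of UMIs and on the weight of cells. Against all other Lyz2-expressing cells, 61 genes were at least 2-fold higher, but 152 with each cell given equal weight, 109 with thinning to 3000 UMIs, 6 with at least 100 UMIs and 1282 with no minimum. The genes at least 2-fold lower numbered 849, and 484 with thinning, 436 with at least 100 UMIs, 2170 with no minimum and 487 without the cells with T or NK transcripts. Against C1q-low cells, for which the alternatives were chosen after seeing the data, 308 higher and 420 lower genes became 111 and 174 with at least 100 UMIs and 1808 and 1779 with no minimum. With no minimum, genes of few UMIs enter by construction.

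Of 651 alternative values of 31 named genes, 643 kept their sign and 8 changed it, 7 of them of genes past 2-fold. Sizes moved more often, since 498 of the 651 lay within the interval of the main value. With thinning to 3000 UMIs, Hist1h1b went from -4.34 to -3.15, Nkg7 from -4.10 to -3.07 and Trbc2 from -4.01 to -3.01. Ccl8 went from 1.09 to 1.48. Thinning kept the cells selected on raw counts. With selection limits per 10000 UMIs, Pclaf went from -3.45 to -1.95, Ccna2 from -3.30 to -1.83 and Rrm2 from -3.19 to -1.99, while Ccl8 went to 1.34 and Nkg7 to -4.37. Without the cells with T or NK transcripts, Gimap4 stood at 0.02, Il2rb at 0.16, Ltb at 0.24, Nkg7 at 0.16, Ptprcap at 0.43 and Trbc2 at 0.61, as the lymphoid cells on the other side were then gone by construction. In the T cell sort Abcc3 stood at -0.31 and Mgmt, at 0.86 in the CD45 sort, at -1.43 on 3 UMIs, and the cause was not tested. No scaling moved the median of all genes by 0.1 or more on the log2 scale. No paired analysis was possible because each gate was 1 library and no test was made. Depth limits genes of few UMIs, such as Lyve1 with 7 and Cd163 with 5 UMIs.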
